A study of Bos taurus with 24 samples.

Results

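Insulin signals within the fat cell through a short chain of proteins. The transcripts of 10 genes along that chain were followed here in the subcutaneous fat of beef cows. These genes were INSR, IRS1, IRS2, GAB1, GRB14, PIK3R1, AKT2, FOXO1, SLC2A4 and SLC2A1. The insulin receptor phosphorylates docking proteins, these recruit phosphoinositide 3-kinase, and the kinase AKT that follows sends the glucose transporter GLUT4 to the cell surface and keeps the transcription factor FOXO1 out of the nucleus. In the fat of ruminants this chain governs the uptake of glucose and the balance between storing and releasing lipid, although acetate rather than glucose is the main substrate for their fatty acid synthesis. The 10 genes were chosen by symbol, with earlier results of these data known. Each had exactly 1 row, called a transcript cluster, on the array, out of 18444 genes with a symbol of their own and 24997 clusters tested.

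The fat came from 12 crossbred cows, 5 years old and not pregnant, picked from 121 for the extremes of body weight gain during ad libitum feeding. The 6 cows with the greatest gain (H1 to H6, high gain) and 6 with the least (L1 to L6, low gain) were biopsied while feed was offered ad libitum, on day 49, and earlier under feed restriction, on day 105 of 112 days at a fixed allowance of energy for body size. Each of the 4 groups, high gain at ad libitum, high gain at restriction, low gain at ad libitum and low gain at restriction, thus held 6 arrays, and the 24 arrays were Bovine 1.1ST arrays with 1 biopsy each. The gain groups were set by the gain itself. Both were of mixed breed, in shares that differed, and the study reports a greater feed intake in the high gain cows. Gain therefore cannot be told apart from intake and breed. The biopsy at ad libitum was from the right side and the one at restriction from the left, so diet cannot be told apart from side, day and period. The study's methods also give a lower average RNA integrity for the biopsies at restriction than for those at ad libitum, and its part in the results was not tested.

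Values are the deposited log2 signals, on which a difference of 1 is a factor of 2. The median cluster of an array lay at 7.83 to 7.94 at ad libitum and at 8.26 to 8.34 at restriction, so the median change over all clusters was -0.43 over the 12 cows (-0.42 in high gain and -0.43 in low gain cows). The diet changes were therefore also computed with every array centred on its own median, called the centred scale. A gene was called where limma's paired fit, with the cow as a block, gave an adjusted p under 0.05 (Benjamini-Hochberg over 24997 clusters). The 14 measured markers of mature fat cells averaged 16.44 to 17.44 in every array, whereas 11 skeletal muscle markers averaged 6.68 to 8.71 and 9 epidermal markers 6.02 to 7.2. As these are pieces of whole tissue, fewer cells of a type and less RNA per cell cannot be told apart.

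As deposited, 3 of the 10 genes were higher at ad libitum than at restriction over the 12 cows (SLC2A4, AKT2 and SLC2A1) and the other 7 were lower. Among all clusters 9.04% were called higher and 65.6% lower, so a share of 7 in 10 genes lower is near that of all clusters. On the centred scale, where 27.3% of clusters were higher and 24.7% lower, the same 3 genes were higher, GAB1, GRB14, INSR and IRS2 were lower, and IRS1, PIK3R1 and FOXO1 were not called. The median change of the 10 genes was -0.64 as deposited, against -0.43 for all clusters, and -0.21 centred, against 0.0.

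The gain groups gave the same counts when each was fitted alone. In high gain cows 2 genes were higher and 6 lower as deposited, beside 7.36% and 53.1% of all clusters, and 3 were higher and 2 lower on the centred scale, beside 18.8% and 16.5%. In low gain cows 2 were higher and 6 lower as deposited, beside 6.28% and 54.3% of clusters, and 3 were higher and 2 lower on the centred scale, beside 18.6% and 13.1%. The 5 genes called on the centred scale were SLC2A4, AKT2, SLC2A1, GAB1 and GRB14 in both gain groups.

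**Figure D1:**
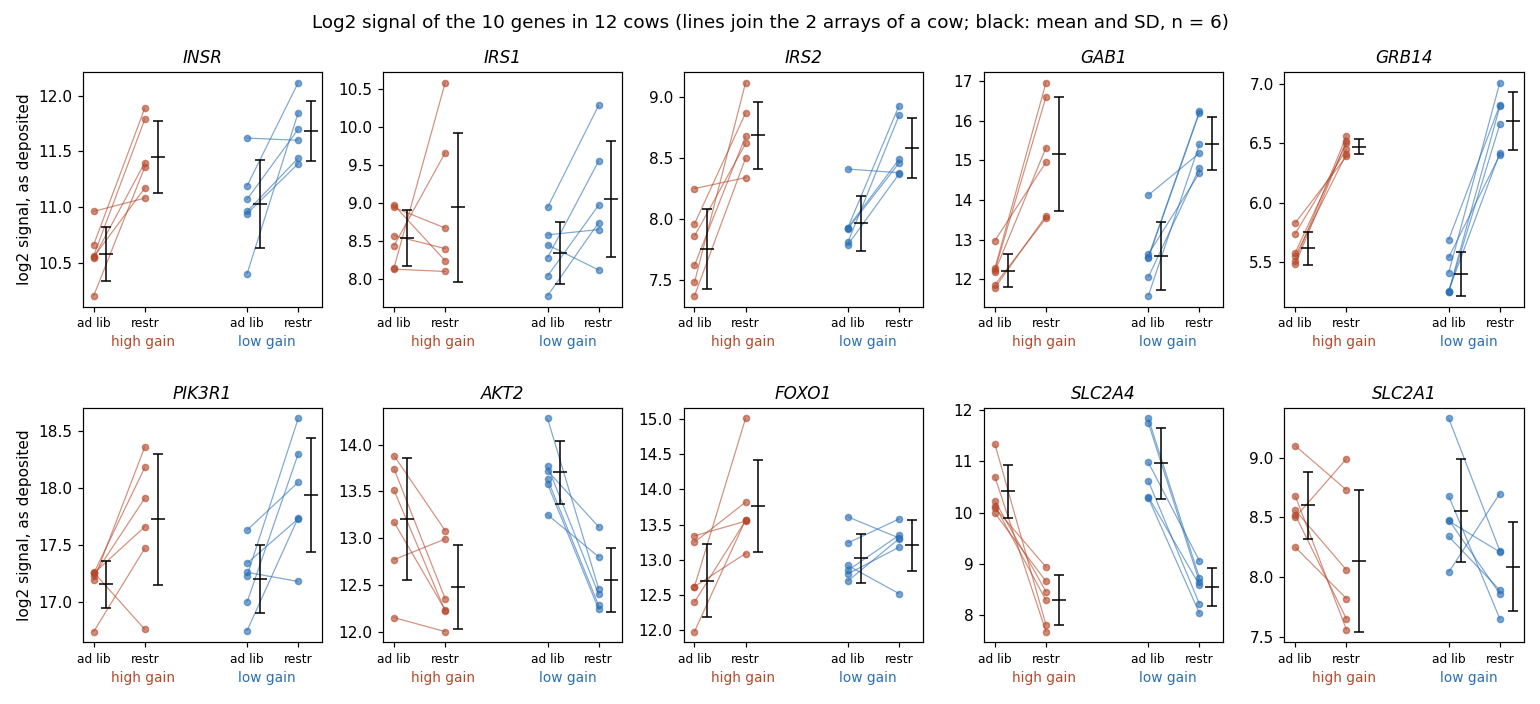
Log2 signal as deposited (vertical axes, 1 panel a gene) of the 10 genes in high gain (red) and low gain (blue) cows, ad libitum (ad lib) left of restriction (restr), with a line for each cow and the mean and SD of 6 arrays in black. SLC2A4 was higher at ad libitum in all 12 cows, and GAB1 and GRB14 were lower in all 12, with no overlap of the diets in either gain group. Of all clusters 9.04% were called higher and 65.6% lower over the 12 cows, and how many lacked overlap was not counted.

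SLC2A4, which encodes GLUT4, the transporter that insulin moves to the surface of fat and muscle cells, had the largest rise of the 10. In high gain cows its log2 signal had a lowest, median and highest value of 9.99, 10.19 and 11.34 at ad libitum and of 7.68, 8.37 and 8.94 at restriction. The values of low gain cows were 10.29, 10.8 and 11.84 at ad libitum and 8.04, 8.62 and 9.06 at restriction. The diets did not overlap in either gain group, and every one of the 12 cows was higher at ad libitum, by 1.15 (H1) to 3.53 (H2). The change was 2.11 ± 0.31 in high gain cows (SE, adjusted p = 0.000767) and 2.42 ± 0.2 in low gain cows (adjusted p = 0.000181), or 4.32-fold in high gain and 5.34-fold in low gain cows. Over all 12 cows it was 2.26 ± 0.2, or 4.8-fold (adjusted p = 3.65e-07), and on the centred scale 2.7 ± 0.2, or 6.48-fold. No cow left out in turn removed the call, and the change then stayed between 2.12 and 2.36.

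SLC2A1 encodes GLUT1, the transporter that carries glucose into most cells without need of insulin. In high gain cows it lay at 8.25, 8.54 and 9.1 (lowest, median, highest) at ad libitum and at 7.56, 7.94 and 8.99 at restriction. In low gain cows it lay at 8.04, 8.47 and 9.33 at ad libitum and at 7.65, 8.05 and 8.7 at restriction. The diets overlapped in both gain groups, and 10 of 12 cows were higher at ad libitum, all but H4 (-0.5) and L5 (-0.66). The change was 0.47 ± 0.16 over the 12 cows (adjusted p = 0.0142), but neither 0.46 ± 0.19 in high gain cows (adjusted p = 0.0649) nor 0.47 ± 0.22 in low gain cows (adjusted p = 0.0864) was called as deposited. Without H4 the change in high gain cows was 0.66 (adjusted p = 0.00861) and without L5 that in low gain cows was 0.69 (adjusted p = 0.00849). After centring it was called in both, at 0.88 (adjusted p = 0.00863) in high gain and 0.92 (adjusted p = 0.0125) in low gain cows.

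A shift common to all clusters of an array cancels in the difference between the 2 transporters within it. SLC2A4 moved up against SLC2A1 in all 12 cows, by 0.29 to 3.16, with a mean of 1.8 ± 0.91 (SD, n = 12; exact two-sided sign-flip permutation test p = 0.000488, the smallest the test can give, and 0.00439 adjusted over 9 such tests). The mean was 1.65 ± 1.02 in high gain cows and 1.95 ± 0.85 in low gain cows, each 6 of 6 cows. With 6 cows the exact permutation test cannot go below 0.0312 (0.0938 adjusted). The smallest SLC2A4 change (1.15) exceeded the largest SLC2A1 change (1.12), so the common direction follows from those changes. The test adds no support separate from them.

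AKT2 is the AKT kinase most closely tied to glucose uptake, and it was the only other of the 10 genes called higher as deposited in each gain group. Low gain cows lay at 13.25, 13.67 and 14.28 (lowest, median, highest) at ad libitum, and at 12.24, 12.43 and 13.12 at restriction, with no overlap. The high gain cows lay at 12.15, 13.34 and 13.88 at ad libitum, and at restriction had a median of 12.29 and a highest value of 13.08, with H5 the lowest cow in both biopsies and the next at 12.22. All cows but H1 were higher at ad libitum, and H1 was lower, by 0.22 as deposited. The change was 1.15 ± 0.18 in low gain cows (adjusted p = 0.000936) and 0.73 ± 0.22 in high gain cows (adjusted p = 0.0189). The call in high gain cows was lost without H2, H3 or H6 (adjusted p 0.0501 to 0.059), but on the centred scale, where all 12 cows were higher, the change was 1.14 there and no left-out cow removed the call (adjusted p up to 0.0172).

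GAB1, a docking protein that gathers signalling proteins beneath the insulin receptor and growth factor receptors, had the largest fall of the 10. Among high gain cows it lay at 11.78, 12.2 and 12.97 (lowest, median, highest) at ad libitum and at 13.54, 15.14 and 16.96 at restriction. Among low gain cows it lay at 11.58, 12.54 and 14.12 at ad libitum and at 14.68, 15.29 and 16.23 at restriction. All 12 cows were lower at ad libitum, from H4 with a change of -4.69 to L1 with -1.06. The diets did not overlap within either gain group, as deposited or centred. Of all clusters 65.6% were called lower as deposited over the 12 cows, and how many lacked overlap was not counted. The change was -2.95 ± 0.43 in high gain cows (7.71-fold, adjusted p = 0.000724) and -2.84 ± 0.35 in low gain cows (7.15-fold, adjusted p = 0.000349), and on the centred scale -2.53 in high gain and -2.39 in low gain cows. High gain cows were spread widely at restriction (SD 1.45, against 0.42 at ad libitum), with the lowest pair of cows at 13.54 and 13.6 and the highest pair at 16.6 and 16.96, whereas in low gain cows the SD was 0.67 at restriction and 0.85 at ad libitum; these spreads were not tested against each other.

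GRB14, an adaptor that binds the active insulin receptor and inhibits it, fell in every cow although its signal was dim. It lay at 5.48, 5.57 and 5.83 (lowest, median, highest) in high gain cows at ad libitum and at 6.39, 6.47 and 6.56 at restriction. The low gain cows lay at 5.25, 5.33 and 5.69 at ad libitum and at 6.4, 6.74 and 7.01 at restriction. The diets did not overlap in either gain group, as deposited or centred, and the share of all clusters without overlap was not counted. The change was -0.85 ± 0.11 in high gain cows (adjusted p = 0.000398) and -1.29 ± 0.13 in low gain cows (adjusted p = 0.000229), and on the centred scale -0.44 in high gain (adjusted p = 0.0139) and -0.83 in low gain cows (adjusted p = 0.00197). Its mean over the 24 arrays, 6.04, was above that of only 9.54% of clusters, and among 806 olfactory receptor clusters, which stand here for genes that fat is not known to use, 37.1% were dimmer. Those receptors had a median change of -0.45 in high gain and -0.5 in low gain cows as deposited, and the part of background signal in the change of GRB14 was not tested.

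The receptor itself, INSR, was lower at ad libitum as deposited. The high gain cows lay at 10.2, 10.56 and 10.96 (lowest, median, highest) at ad libitum and at 11.08, 11.38 and 11.89 at restriction, without overlap. On the centred scale the diets overlapped in these cows. The low gain cows lay at 10.4, 11.02 and 11.62 at ad libitum and at 11.39, 11.65 and 12.12 at restriction, where only L1 was no lower at ad libitum (0.03). The change was -0.87 ± 0.16 in high gain cows (adjusted p = 0.00223) and -0.65 ± 0.18 in low gain cows (adjusted p = 0.0117). On the centred scale the changes were -0.46 in high gain (adjusted p = 0.0633) and -0.2 in low gain cows (adjusted p = 0.425). Over the 12 cows the centred change was -0.33 (adjusted p = 0.0465), with 9 of 12 cows lower. This last call was lost when H1, H4, H5, H6, L2, L3, L5 or L6 was left out (adjusted p up to 0.104). After cyclic loess the call was kept in high gain cows (-0.51, adjusted p = 0.0361) and over the 12 cows (-0.44, adjusted p = 0.00714). In low gain cows it was lost (-0.38, adjusted p = 0.121). The difference between GRB14 and INSR within an array had a mean change of -0.31 ± 0.7 (SD, n = 12; exact permutation test p = 0.163), positive in 5 cows and negative in 7.

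IRS1 and IRS2 encode the main docking proteins of the receptor and differed in how they varied. IRS2 lay at 7.37, 7.74 and 8.25 (lowest, median, highest) in high gain cows at ad libitum and at 8.34, 8.65 and 9.12 at restriction. Low gain cows lay at 7.79, 7.92 and 8.41 at ad libitum and at 8.37, 8.47 and 8.93 at restriction, and L2, the cow at 8.41, was the only one of the 12 not lower at ad libitum. The fall was -0.93 ± 0.18 in high gain cows (adjusted p = 0.00269) and -0.61 ± 0.15 in low gain cows (adjusted p = 0.00717). After centring it was -0.34 ± 0.12 over the 12 cows (adjusted p = 0.0339), a call lost without H1, H4, H5, H6, L1, L3, L5 or L6 (adjusted p up to 0.0769).

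IRS1 had no common direction. Among high gain cows it lay at 8.13, 8.51 and 8.97 (lowest, median, highest) at ad libitum and at 8.1, 8.54 and 10.58 at restriction. Among low gain cows it lay at 7.78, 8.37 and 8.94 at ad libitum and at 8.12, 8.86 and 10.28 at restriction. A few cows stood high at restriction, with H1 at 10.58 and L6 at 10.28, and 5 cows were higher at ad libitum while 7 were lower. The change over the 12 cows was -0.56 ± 0.24 (adjusted p = 0.0487), a call that was lost without H1, H3, H6, L1, L3, L4 or L6 (adjusted p up to 0.104), without the cow as a block (adjusted p = 0.0545) and on the centred scale (-0.13, adjusted p = 0.683). In low gain cows it was -0.71 ± 0.23 (adjusted p = 0.0227, lost without L1, L3, L4 or L6, up to 0.0687), and in high gain cows -0.41 ± 0.38 (adjusted p = 0.373), turning to 0.01 on the centred scale. The difference between IRS1 and IRS2 changed by 0.22 ± 1.09 within an array (SD, n = 12; exact permutation test p = 0.517).

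PIK3R1 encodes the main regulatory subunit of phosphoinositide 3-kinase and was the brightest of the 10, above 99.4% of clusters at a mean of 17.5. The high gain cows lay at 16.74, 17.24 and 17.26 (lowest, median, highest) at ad libitum and at 16.76, 17.79 and 18.36 at restriction. The low gain cows lay at 16.75, 17.25 and 17.63 at ad libitum and at 17.18, 17.89 and 18.61 at restriction. The diets overlapped and 10 of 12 cows were lower at ad libitum, all but H2 (0.5) and L4 (0.08). The change was -0.73 ± 0.2 in low gain cows (adjusted p = 0.0115) and -0.57 ± 0.2 in high gain cows (adjusted p = 0.0367), the call in high gain cows being kept without H2 and lost without any other high gain cow (adjusted p up to 0.105). On the centred scale the change was -0.22 ± 0.16 over the 12 cows (adjusted p = 0.257), while after cyclic loess, which scales bright and dim clusters apart, it was -0.85 (adjusted p = 0.000259).

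FOXO1, the transcription factor that AKT holds in check and that turns on genes of fasting, fell in high gain cows. There it lay at 11.98, 12.62 and 13.34 (lowest, median, highest) at ad libitum and at 13.09, 13.57 and 15.01 at restriction, with H5 the highest, and all 6 cows were lower at ad libitum. Among low gain cows it lay at 12.7, 12.89 and 13.61 at ad libitum and at 12.52, 13.3 and 13.58 at restriction, and 4 of 6 cows were lower. The change was -1.07 ± 0.27 in high gain cows (adjusted p = 0.00911) and -0.19 ± 0.16 in low gain cows (adjusted p = 0.337). On the centred scale neither was called, at -0.65 in high gain (adjusted p = 0.0863) and 0.27 in low gain cows (adjusted p = 0.235), while the call in high gain cows was kept after quantile scaling (-0.93, adjusted p = 0.0274) and cyclic loess (-0.9, adjusted p = 0.0301). The difference between the gain groups was -0.88 ± 0.34 and was not called (adjusted p = 0.455 in limma). The 12 endothelial markers moved beside it: their mean level in high gain cows was 11.11 to 11.41 at ad libitum and 11.75 to 12.35 at restriction, and in low gain cows it was 11.37 to 11.93 at ad libitum and 11.41 to 12.1 at restriction. The difference of response had a median of -0.87 over the list, with 9 of 12 markers at an unadjusted p under 0.05 and 0 called. Of all clusters, 2347 of 24997 had such a p in this comparison. The part of endothelial cells in the change of FOXO1 was not tested.

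**Figure D2:**
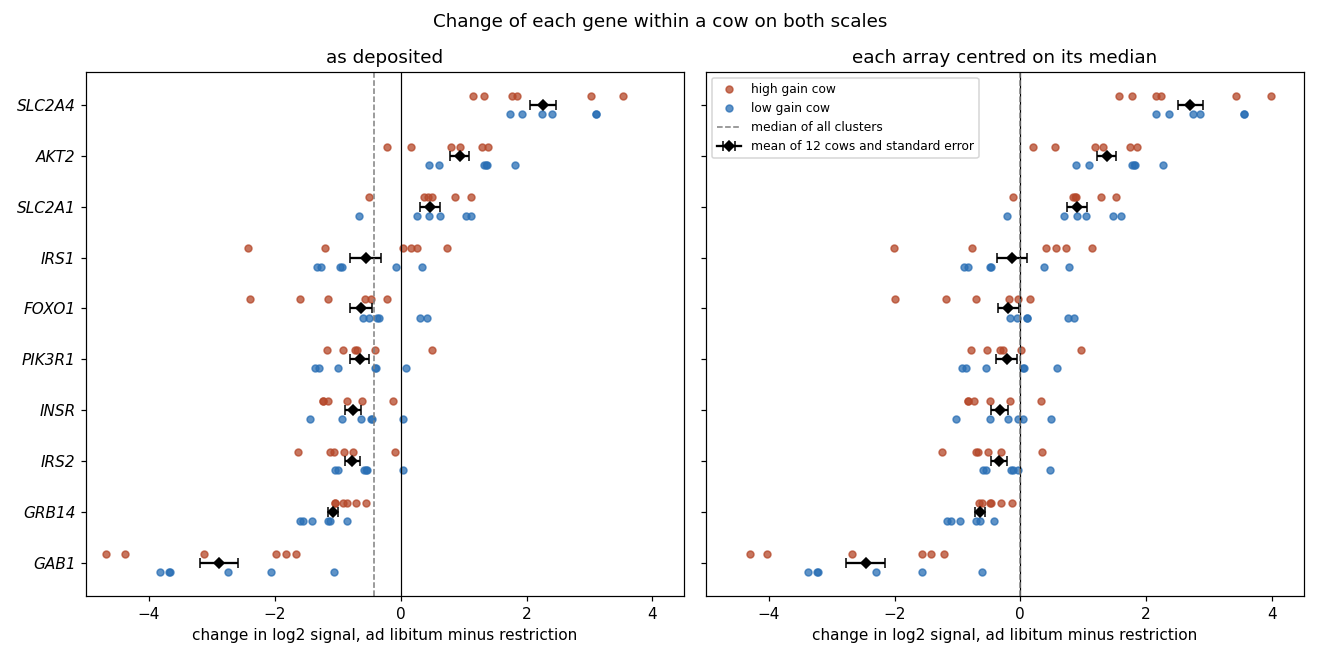
Change in log2 signal of each gene, ad libitum minus restriction (horizontal axis), for the 6 high gain (red) and 6 low gain (blue) cows, with the mean of 12 cows and its standard error as black diamonds, as deposited on the left and centred on the right. The dashed line is the median of all clusters, -0.43 as deposited. By their means, SLC2A4, AKT2 and SLC2A1 lie right of it and all the other genes left of it on both scales. GAB1 and GRB14 lie farthest left, and IRS1, PIK3R1 and FOXO1 were not called on the centred scale.

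Cows of high and low gain were then compared within a diet, to ask whether cows that differ in gain, and with it in feed intake, differ in the same transcripts. None of the 10 genes was called at ad libitum, at restriction or in the difference of response, and of all clusters 0.0% was called at ad libitum and 0.0% at restriction (1777 and 2292 of 24997 clusters had an unadjusted p under 0.05). In the difference of response 0.0% of clusters was called higher and 0.008% lower as deposited, and 0.0% and 0.02% on the centred scale. Of the 10 genes, 1 had an unadjusted p under 0.05 at ad libitum, 0 at restriction and 2 in the difference of response. Of all clusters, 2347 of 24997 had such a p in the difference of response.

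At ad libitum that gene was INSR, which averaged 10.58 ± 0.24 in high gain and 11.03 ± 0.4 in low gain cows (SD over 6 arrays each) and differed by -0.45 ± 0.18 (SE, adjusted p = 0.644 in limma). SLC2A4 averaged 10.42 ± 0.51 in high gain and 10.97 ± 0.69 in low gain cows (difference -0.55 ± 0.31, adjusted p = 0.76), and AKT2 averaged 13.2 ± 0.65 in high gain and 13.7 ± 0.33 in low gain cows (difference -0.5 ± 0.27, adjusted p = 0.738). At restriction the largest difference was that of FOXO1, 13.77 ± 0.65 in high gain and 13.21 ± 0.36 in low gain cows (difference 0.56 ± 0.27, adjusted p = 0.561). The other genes differed by -0.36 to 0.22 at ad libitum and by -0.25 to 0.11 at restriction. The second gene with an unadjusted p under 0.05 in the difference of response, beside FOXO1, was GRB14, whose fall was smaller in high gain cows by 0.43 ± 0.16 (adjusted p = 0.437). With standard errors of 0.11 to 0.56 within a diet, differences of the size seen here could not be told from the spread between cows.

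**Figure D3:**
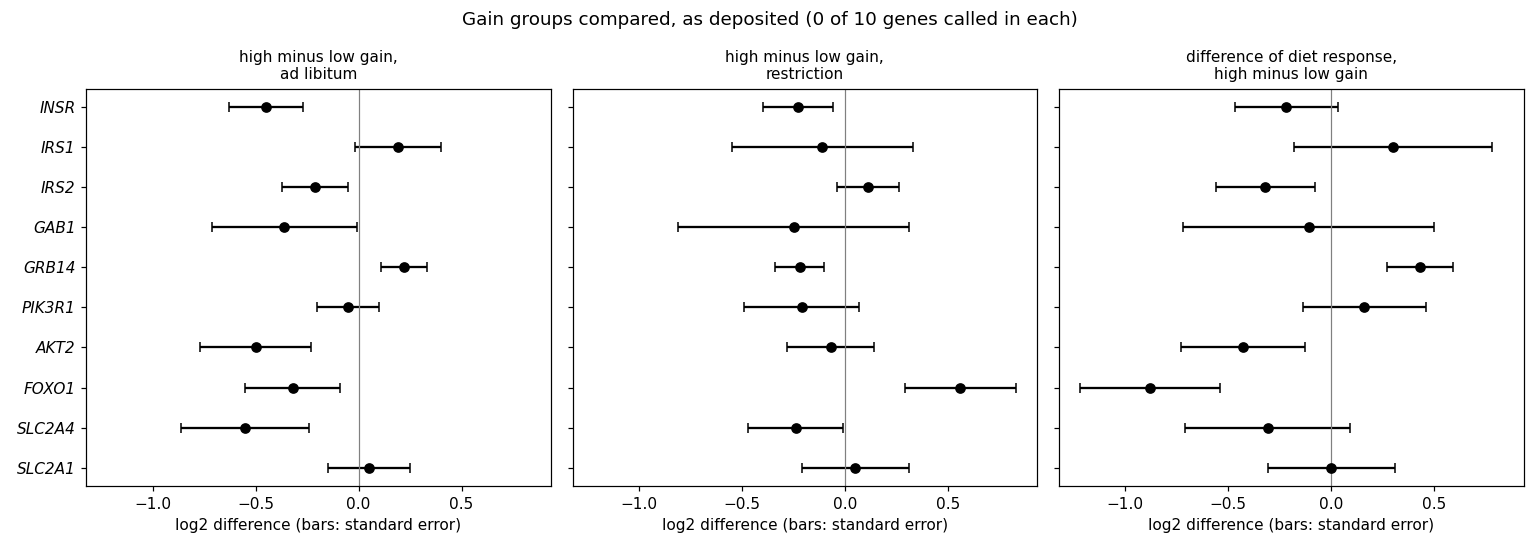
Difference in log2 signal as deposited (horizontal axes, bars are standard errors) between high gain and low gain cows at ad libitum, at restriction, and in their response to diet, for the 10 genes. No gene was called, and the point farthest from 0 is FOXO1 in the difference of response, at -0.88.

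The 10 genes were set beside wider lists of the pathway, which include them and hold other genes of the same roles. Over the 12 cows 9.04% of all clusters were higher and 65.6% lower as deposited, and 27.3% and 24.7% centred, and each list is read against these shares. Of 25 measured receptors and docking proteins, 0 were higher and 19 lower (76.0%) as deposited, and 4 were higher (16.0%) and 9 lower (36.0%) on the centred scale. The list had a median change of -0.55 as deposited, against -0.43 for all clusters. IGF1R, the receptor for insulin-like growth factor that can form hybrids with INSR, fell by 1.11 ± 0.11 (adjusted p = 8.51e-07; -0.67 centred), and the relative of GAB1, GAB2, fell by 0.77 ± 0.09 (-0.34 centred). SHC2 (-0.95 ± 0.06, and -0.51 centred, at a dim mean of 7.47) and CBL (-0.89 ± 0.1, and -0.45 centred), adaptors of receptor kinases, were also lower on both scales. None of them came near the change of GAB1. On the centred scale GAB2 was not called in low gain cows (-0.23, adjusted p = 0.259).

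Among 28 inhibitors of the pathway 1 was higher (3.57%) and 23 lower (82.1%) as deposited, and 4 were higher (14.3%) and 11 lower (39.3%) centred, with a list median of -0.1 on the centred scale against 0.0 for all clusters. TXNIP, which holds down glucose uptake and rises with glucose, fell by 1.83 ± 0.22 (3.55-fold, adjusted p = 4.59e-06), and its relative ARRDC4 by 1.36 ± 0.15 (2.56-fold, adjusted p = 2.39e-06). Both were called lower centred too, at -1.39 and -0.93. GRB7, the relative of GRB14, fell by 0.8 ± 0.08 (-0.37 centred) and was about as dim (mean 6.23). SOCS7 fell by 0.71 ± 0.08 (-0.27 centred). Centred, GRB7 was not called in low gain cows (adjusted p = 0.0933). SOCS7 was called centred in neither gain group (adjusted p 0.0615 in high gain and 0.242 in low gain cows).

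Of 35 measured PI3K, AKT and mTOR kinases and their partners, 4 were higher (11.4%) and 21 lower (60.0%) as deposited, and 12 were higher (34.3%) and 9 lower (25.7%) centred, shares near those of all clusters. The 4 named by smallest p all fell: EIF4EBP1, the repressor of translation that mTOR inactivates, by 1.16 ± 0.08 (adjusted p = 7.03e-08; -0.73 centred), TSC1, a brake on mTOR, by 1.15 ± 0.1 (-0.72 centred), RICTOR, a subunit of the complex that phosphorylates AKT, by 1.05 ± 0.11 (-0.62 centred), and the catalytic subunit PIK3CD by 0.72 ± 0.08 (-0.29 centred). PIK3CD was dim, at a mean of 7.11 within the range of the olfactory receptors (95th percentile 8.24). On the centred scale it was not called in high gain cows (-0.2, adjusted p = 0.182).

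Of 19 FOXO factors and target genes 4 were higher (21.1%) and 10 lower (52.6%) as deposited, and 9 were higher (47.4%) and 5 lower (26.3%) centred. PDK4, which spares glucose by shutting off pyruvate dehydrogenase, fell by 2.54 ± 0.4 (5.83-fold, adjusted p = 5.67e-05; -2.11 centred). PNPLA2, the lipase that starts the breakdown of stored fat, rose by 0.78 ± 0.11 (adjusted p = 2.37e-05; 1.21 centred) and is itself a marker of fat cells. IGFBP1, a target known from liver, fell by 0.77 ± 0.07 (-0.34 centred, where it was not called in low gain cows) at a mean of 8.08, which is within the range of the olfactory receptors. TXNIP belongs to this list as well.

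Of 40 measured genes of GLUT4 vesicle traffic 6 were higher (15.0%) and 22 lower (55.0%) as deposited, and 13 were higher (32.5%) and 7 lower (17.5%) centred. LNPEP, the aminopeptidase that travels in the same vesicles as GLUT4, rose by 1.11 ± 0.12 (2.17-fold, adjusted p = 1.62e-06), and the vesicle fusion proteins VAMP8 and VAMP3 by 0.99 ± 0.12 and 0.66 ± 0.08. Centred, these were 1.55, 1.42 and 1.09. NRF1, listed as a regulator of GLUT4 transcription, fell by 1.64 ± 0.09 (3.11-fold; -1.2 centred). LNPEP and both VAMP genes moved the same way as SLC2A4.

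Of 17 glucose transporters 2 were higher as deposited (11.8%), SLC2A4 and SLC2A1, and 11 were lower (64.7%), and 6 were higher and 6 lower centred (35.3% each). The 4 others named by smallest p as deposited were lower. SLC2A8, an intracellular transporter, fell by 0.94 ± 0.08 (-0.51 centred) and SLC5A10 by 0.86 ± 0.1 (-0.42 centred). SLC5A9 fell by 0.76 ± 0.09 (-0.32 centred) and SLC5A2, the transporter of the kidney, by 0.67 ± 0.09 (-0.24 centred). Their mean signals were, in this order, 7.53, 7.77, 7.38 and 8.4. The 95th percentile of the olfactory receptors was 8.24, and SLC2A1 itself had a mean of 8.35. Centred, SLC5A9 and SLC5A2 were called in neither gain group (adjusted p from 0.0643 to 0.199). SLC2A3, a high-affinity transporter added here after its values were seen, was brighter (mean 10.42) and fell by 1.21 ± 0.19 (2.32-fold, adjusted p = 4.61e-05), and by 0.78 centred, where it was called in high gain cows (-1.08) but not in low gain cows (-0.48, adjusted p = 0.205). No transporter gene other than those of GLUT4 and GLUT1 was called higher as deposited. On the centred scale, where 6 of 17 were higher, those 2 were not the only ones.

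**Figure D4:**
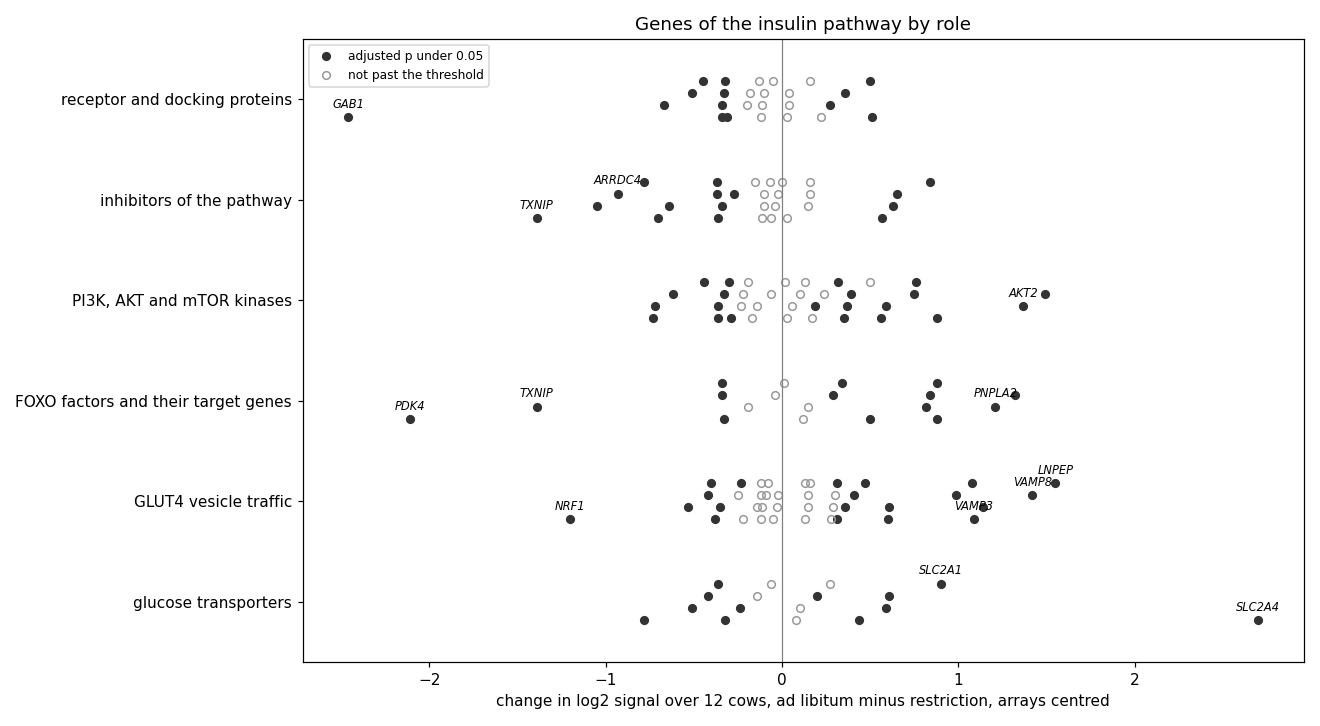
Change in log2 signal over 12 cows, ad libitum minus restriction with arrays centred (horizontal axis), of every measured gene of 6 lists of the insulin pathway (rows), filled where the adjusted p was under 0.05. SLC2A4 at 2.7 lies farthest right and GAB1 at -2.46 farthest left.

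Of the cell type markers 0 were called between gain groups. At ad libitum 6 of 11 fibroblast and progenitor markers (list median 0.58), 6 of 12 endothelial markers (-0.44) and 0 of 13 macrophage markers had an unadjusted p under 0.05. At restriction 2 of 11, 3 of 12 and 7 of 13 (median 0.57) did, in the same order. Skeletal and smooth muscle markers gave 0 at both diets. Fat cell markers gave 3 of 14 at ad libitum (median -0.17) and 3 of 14 at restriction (median -0.21). Of all 24997 clusters 1777 had such a p at ad libitum and 2292 at restriction. The part of these cell types in the differences of the 10 genes and of those named next was not tested.

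Between gain groups none of the genes of the 6 pathway lists was called. The smallest unadjusted p was that of ENPP1, an inhibitor of the insulin receptor, which was higher by 1.63 ± 0.41 in high gain than in low gain cows at restriction (adjusted p = 0.427), and next came EIF4EBP2 at ad libitum (-0.78 ± 0.22, adjusted p = 0.514). At restriction CBLB differed by 0.99 ± 0.32 and SESN3 by -1.02 ± 0.39, and at ad libitum MYO1C, a motor of GLUT4 vesicles, by -0.71 ± 0.21 and BCL6 by -0.81 ± 0.27, all with an adjusted p of 0.436 or more. The remaining named genes had smaller differences: GAB3 (-0.38), DOK4 (0.33), TRIB1 (-0.54), PTPN2 (0.35), AKT1 (-0.37), CCNG2 (0.55), TBC1D1 (-0.4), SLC2A11 (0.2) and SLC5A4 (0.19) at ad libitum, and PTPN11 (-0.36), INPP5K (-0.57), GSK3B (-0.66), PIK3R2 (-0.41), PNPLA2 (-0.27), MYO5A (0.48), STXBP4 (0.46), SLC2A3 (0.52) and SLC2A10 (-0.23) at restriction.

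Markers of the cell types in the tissue moved with diet beside these genes. Of 14 fat cell markers 6 were higher (42.9%), 4 lower (28.6%) and 4 not called as deposited, and 10 were higher (71.4%) and 2 lower (14.3%) centred, beside 9.04% and 65.6% of all clusters as deposited and 27.3% and 24.7% centred. Their mean level was 16.44 to 17.3 at ad libitum and 16.47 to 17.07 at restriction in high gain cows, and 17.04 to 17.44 at ad libitum and 16.95 to 17.4 at restriction in low gain cows. Of 11 fibroblast and progenitor markers 9 were higher and 0 lower at ad libitum as deposited, and 10 higher and 0 lower centred, with mean levels of 14.01 to 15.17 at ad libitum and 13.0 to 14.23 at restriction in high gain cows and of 13.45 to 15.09 at ad libitum and 12.58 to 13.73 at restriction in low gain cows. The part of these markers in the changes of the 10 genes was not tested.

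The genes whose pattern was most like that of 4 of the 10 were ranked by Pearson's r over the 24 centred arrays of 12 cows, which share their diets, so r is a description with no test. For SLC2A4 they were ACOX2 (0.96), GNAS (0.95, near the top of the scale at a mean of 19.3) and PANK1 (0.95), with r of 0.62 to 0.71 after group means were removed. For GAB1 they were RAD54L2 (0.95), PJA2 (0.94) and EDA (0.93), with 0.79 to 0.84 within groups. For GRB14 they were SNTG1 (0.89), LOC522334 (0.88) and LRP12 (0.88), with only 0.29 to 0.32 within groups. For IRS1, which had no common response to diet, they were MIR628 (0.75), PPP1R3B (0.73) and LOC100337155 (0.73), with 0.74 to 0.78 within groups.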

How the data were processed

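Subcutaneous fat of 12 cows was measured at 2 diets on 24 arrays. The authors made the deposited log2 values by RMA, after a correction for GC content and a signal space transformation, with Affymetrix Expression Console and ran their tests in Transcriptome Analysis Console; versions are not given in the sources used here. The value table held 26773 clusters, of which 1776 with identifiers below the lowest named one were left out, and 24997 were tested. Probes were named from the platform annotation (5822 clusters had no symbol and 385 several), and 10 of 10 members matched RefSeq by gene number.

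Fits were made in R 4.3.3 with limma 3.58.1 (two-sided moderated tests from lmFit and eBayes), with the cow as a block for diet, on values as deposited and with each array centred on its median. The scripts were tested on simulated data. Deviations from the group means correlated between the 2 arrays of a cow by 0.101 to 0.339 in high gain and by 0.0291 to 0.294 in low gain cows; the pairing itself comes from the animal numbers in the labels. Arrays of a group correlated at 0.961 to 0.986. With 6 arrays a group and no repeats, their number limits the precision.

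Members and lists were chosen with earlier results of these data known. Named genes were the members and up to 4 others a list. Those others had the smallest p for diet as deposited among genes called on both scales. Up to 2 genes a list in each gain comparison, and the 3 genes most like SLC2A4, IRS1, GAB1 and GRB14, were also named. Alternatives were the block, centring, quantile and cyclic loess scaling, a filter on dim clusters, the prior, array weights, the one-way test of the methods and leaving out each cow. Centring together with leaving out a cow was added after seeing the data.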

Additional observations from a re-analysis of the deposited data

Results flagged for a closer look

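Of the 40 sets of 6 values (10 genes in 4 groups), 2 held a cow far from the others, and chance alone flags about 1 in 20 such sets. IRS2 was high in L2 at ad libitum (8.41, the next cow at 7.93), and PIK3R1 was low in H3 at ad libitum (16.74, the next cow at 17.19).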

How the results depend on the processing

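SLC2A4, GAB1 and GRB14 kept direction and call in both gain groups under every scaling, in the fit without the cow as a block and with any single cow left out. The fold minimum of the methods' one-way test (p under 0.05 and over 2-fold) ended the call of GRB14 in high gain cows. The number of members called lower changed most. In high gain cows it was 2 on the centred scale and 2 by that one-way test with its fold minimum, against 6, and members called higher numbered 1 by the one-way test with or without that minimum, against 2. In low gain cows members called lower numbered 2 centred, 2 centred without the block, 2 by the one-way test with the fold minimum, and 3 after quantile or cyclic loess scaling, against 6. Over 12 cows there were 4 on the centred scale, against 7.

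The direction turned for IRS1 in high gain cows, at 0.01 centred with or without the block, 0.0 after quantile and 0.03 after cyclic loess scaling, for FOXO1 in low gain cows, at 0.27 centred with or without the block, and, with array weights, for SLC2A1 between gain groups at ad libitum (0.0), AKT2 at restriction (0.02) and SLC2A1 in the difference of response (0.02). The scalings set the median change near 0 by construction; other causes were not tested. Without the pairing by cow as a block, the calls of IRS1 in low gain cows (-0.71, adjusted p = 0.0614) and over 12 cows (-0.56, adjusted p = 0.0545) were lost, and no other member's call for diet changed as deposited. On the centred scale, INSR (-0.46, adjusted p = 0.047) and IRS2 (-0.52, adjusted p = 0.0341) were called in high gain cows without the block and not with it.

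With each cow left out in turn, members called higher in high gain cows numbered 1 to 3, and members called lower over 12 cows on the centred scale 2 to 4. Ranges that crossed 0 were those of IRS1 on the centred scale (-0.22 to 0.41 in high gain, -0.24 to 0.08 over 12 cows), of PIK3R1 (-0.14 to 0.04) and SLC2A1 (-0.06 to 0.2) between gain groups at ad libitum, of IRS1 (-0.44 to 0.13), GAB1 (-0.61 to 0.07), AKT2 (-0.19 to 0.04) and SLC2A1 (-0.12 to 0.17) at restriction, and of GAB1 (-0.36 to 0.25), PIK3R1 (-0.05 to 0.32) and SLC2A1 (-0.23 to 0.19) in the difference of response. Within an array GRB14 minus INSR ranged from -0.1 to 0.18 in high gain cows and IRS1 minus IRS2 from -0.29 to 0.03 in low gain cows. None of these values was called. GRB14 was brighter than only 9.54% of clusters, and its signal over background limits what can be read.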
